A study of Oryctolagus cuniculus with 3 samples.

Results

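Ribosome biogenesis and nucleolar genes were followed through the differentiation of RCE1(5T5), a cell line derived from rabbit corneal epithelium. The set was a list of 51 gene symbols, matched by name to the deposited tables, and 48 of the 51 were found among 20536 gene names. BOP1, PWP2 and TBL3 were not analysed here. All 48 were measured, meaning that they reached at least 1 CPM (count per 1000000 fragments after scaling) in at least 1 of the 3 libraries, as did 12818 genes in all.

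RNA was sequenced from RCE1(5T5) cultures labelled non differentiated on day 4, committed on day 6 and terminally differentiated on day 10. Every culture was started on 3T3 fibroblasts growth-arrested with mitomycin C as a feeder layer, in serum-containing medium with insulin, transferrin, hydrocortisone, triiodothyronine, cholera toxin, adenine and epidermal growth factor. The feeder cells were detached with EDTA before total RNA was taken with Trizol. Each stage had 1 library of this 1 cell line, so no difference has a replicate check, no test was run, and stage, days in culture and library cannot be told apart.

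Ribosomes are built in the nucleolus. RNA polymerase I transcribes a long precursor RNA, small nucleolar ribonucleoproteins (snoRNPs) modify it, and a large body of assembly factors cleaves and folds it into the small and the large subunit, which mature further in the nucleoplasm and cytoplasm. These factors are not part of the finished ribosome, whereas ribosomal proteins are. In growing cells the transcription factor MYC is known to promote expression of many of these genes, and basal cells of stratified epithelia divide before they leave the basal layer and differentiate.

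Library depth was 10171693, 12582706 and 10899578 fragments in the order of days. Markers of corneal epithelium were present. By the 2-fold limit defined below 6 of the 9 measured rose over the whole course, beside 17.1% of all measured genes. The keratin KRT3 was at 149.6, 954 and 2018 CPM on days 4, 6 and 10 and KRT12 at 0, 19.3 and 120.7 CPM. The eye transcription factor PAX6 was at 42.2, 127 and 358 CPM. KRT15 was at 15.05, 104.2 and 540.2 CPM, KRT13 at 8.08, 88.2 and 278.1 CPM and TP63 at 55.8, 161.6 and 119.7 CPM. The other 3 did not pass 2-fold and were lower on day 10 than on day 4, the basal keratin KRT5 at 15650, 23370 and 13550 CPM, CDH1 at 291.2, 208.7 and 154.8 CPM and EPCAM at 127.2, 95.1 and 95.3 CPM. Of 25 listed fibroblast and feeder markers 22 were measured. Of these 19 fell and 1, THY1, rose from day 4 to day 10, beside 15.8% and 17.1% of all measured genes. The summed level of these markers was 8777, 5407 and 3402 CPM. ACTA2, the highest of them by CPM on day 4, was at 2362, 1644 and 1246 CPM and did not pass 2-fold. COL1A1 was at 541.9, 312.5 and 265 CPM, VIM at 1527, 1203 and 580.7 CPM, and LUM was at 0 in every library. Some listed markers of immune cells (TYROBP, FCER1G, CD3E), endothelium (PECAM1) and melanocytes (MLANA, TYR, DCT) were at 0 in all 3 libraries. Others were low but not at 0. PTPRC of the immune list was at 1.47, 1.83 and 1.51 CPM on days 4, 6 and 10. The endothelial CDH5 was at 1.93, 0.415 and 0.377 CPM and the melanocyte factor MITF at 2.20, 1.24 and 2.73 CPM. CD14, VWF and TEK stayed below 1 CPM. Other genes of those lists rose from low levels, CD68 from 5.60 to 25.1 and 68 CPM, LYZ from 0.0918 to 0.415 and 3.20 CPM, PMEL from 1.47 to 7.80 and 28.5 CPM and KDR from 2.39 to 6.80 and 5.84 CPM. The part of RNA from other cell types in the results below was not tested. In such bulk libraries fewer cells of a type and less RNA per cell cannot be told apart.

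All 48 genes were highest on day 4 and lowest on day 10 by CPM, although days 6 and 10 lay within counting error for DDX10, HEATR1, GAR1 and RIOK1. The share of all measured genes with that order is not given here. Of the 12818 measured genes 6405 were lower on day 6 than on day 4, and 6490 lower on day 10 than on day 6. A rise or fall here means a difference of at least 1 in log2(CPM + 1), which is 2-fold and understates the change of low genes. From day 4 to day 6, 31 of the 48 fell and 0 rose, where 6.73% of all measured genes fell and 8.06% rose. From day 6 to day 10, 22 fell and 0 rose, beside 7.1% and 8.25% of all genes. Over the whole course from day 4 to day 10, 46 fell and 0 rose, beside 15.8% and 17.1%. The exceptions were DDX10 and LTV1, whose values are given below.

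The median difference in log2(CPM + 1) was -1.26 for the first step, -0.91 for the second and -2.24 for the whole course, while the medians over all measured genes were 0.00, -0.01 and 0.01. In the whole course 34 of the 48 genes lay among the lowest 5% of all measured genes and 13 among the lowest 1%. On day 10 the median gene of the set kept 20.7% of its day 4 CPM, 30 genes were at or below 25%, and 5 genes, RRS1, RRP9, BYSL, RRP12 and MYBBP1A, were at or below 10%. The share of all measured genes at or below these percentages is not given here. At the near limit of 4-fold in log2(CPM + 1), 28 of the 48 fell, beside 3.09% of all measured genes. The exact 95% counting interval of the ratio lay below 1 for 48 of 48 genes over the whole course and below 0.5 for 45, beside 37.7% and 11.7% of all measured genes. These intervals come from the fragment counts of the pair of libraries compared and cover counting error only, not the variation between cultures. The 3 comparisons share libraries, so their counts are not separate results.

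**Figure D1:**
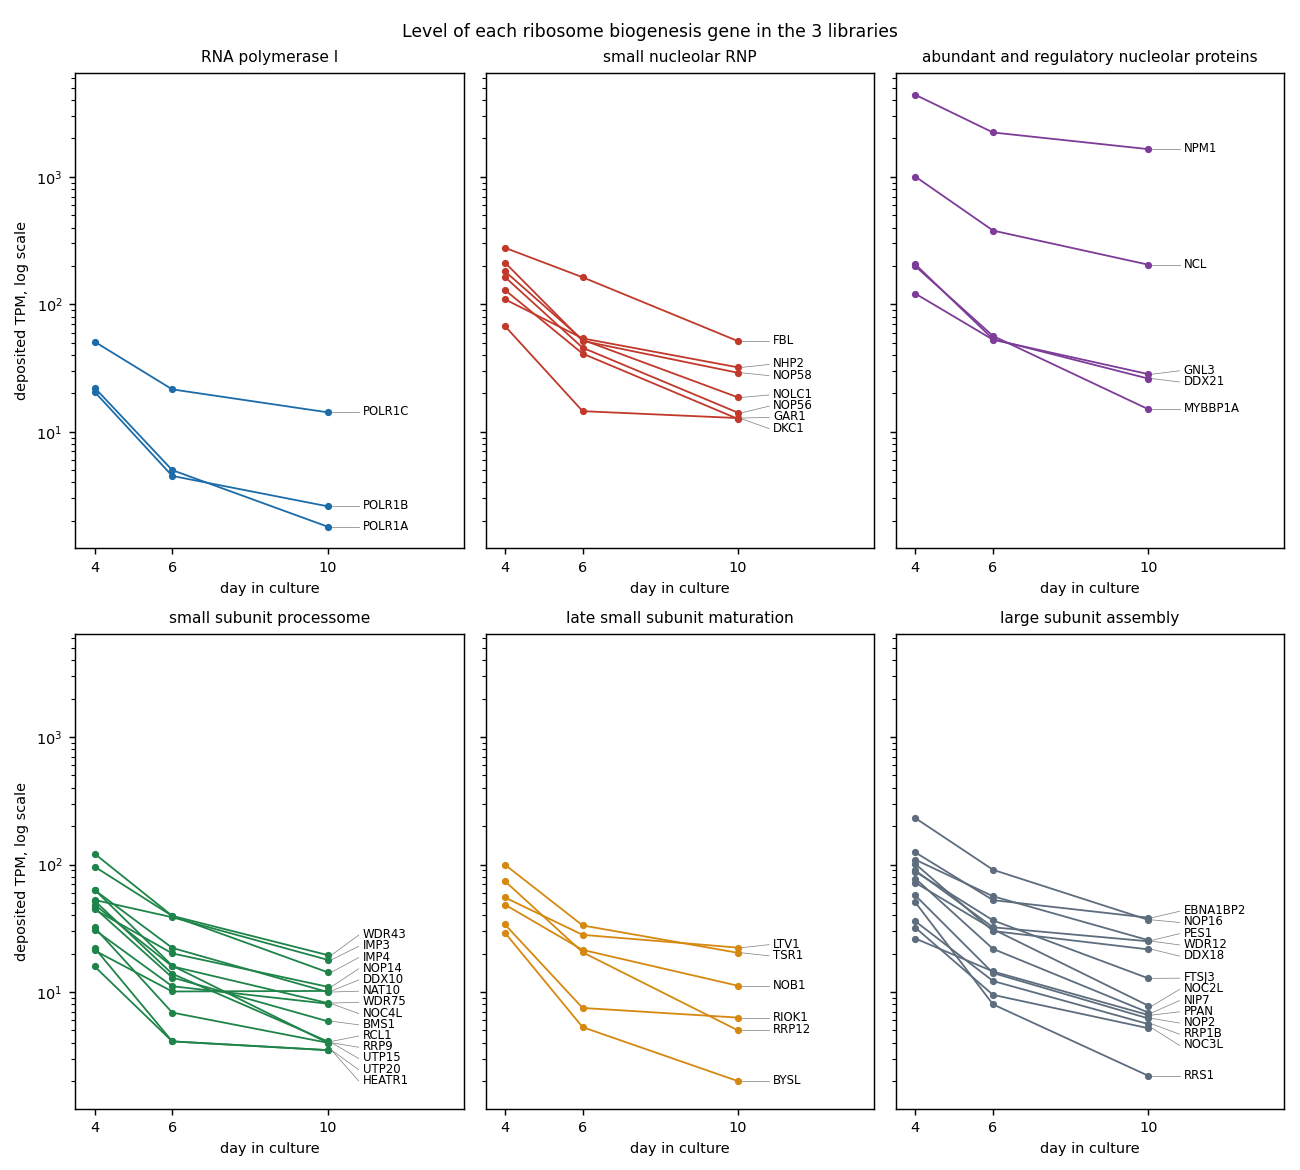
Level of each of the 48 genes in the deposited TPM (transcripts per 1000000, which is per coding length) on a log scale against day in culture, 1 library a day, with 1 panel for each role. NPM1 stayed the most abundant on every day, at 4400 TPM on day 4 and 1649 on day 10, and every line except that of DDX10 ended at its lowest point.

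RNA polymerase I was represented by 3 subunits, which all fell over the whole course, and 2 of which fell in the first step. POLR1A, the largest and catalytic subunit, was at 117.4 CPM on day 4, 33.7 on day 6 and 12.2 on day 10, a 9.59-fold fall (95% counting interval 8 to 11.6). POLR1B, the second largest subunit, was at 67.1, 18.4 and 10.9 CPM, and its first step was 3.64-fold (3.13 to 4.25). POLR1C, which polymerase I shares with polymerase III, was at 50.6, 28.1 and 18.6 CPM, a 2.73-fold fall over the whole course (2.31 to 3.22). POLR1C thus kept 36.7% of its day 4 CPM, against 10.4% and 16.3% for POLR1A and POLR1B, a pair specific to polymerase I. The counting intervals of the 3 subunits do not overlap, nor do those within the pair, and they cover counting error only. The level of POLR1A relative to POLR1C, as a ratio of TPM, was 0.436 on day 4, 0.233 on day 6 and 0.127 on day 10. In each of these subunits the first step was larger than the second. Other specific subunits, from the wider pathway list, kept 18.6% (CD3EAP), 38.1% (POLR1E), 41.5% (TWISTNB) and 81.75% (ZNRD1) of day 4 CPM. Some specific subunits thus kept more than POLR1C.

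The snoRNP genes code for the proteins that carry guide RNAs to the precursor, and all 7 fell from day 4 to day 10 (median -2.48). NOP56, a core protein of the box C/D particles that methylate ribosomal RNA, was at 289.5, 104.7 and 32.7 CPM, an 8.86-fold fall (7.93 to 9.93). Its partner NOP58 was at 336.6, 104 and 59.4 CPM. The methyltransferase of the same particle, FBL (fibrillarin), took another course. It was at 273.3 CPM on day 4, 204.6 on day 6 and 66.3 on day 10. Its first step was 1.34-fold (1.27 to 1.41) and its second 3.09-fold (2.84 to 3.36), so that 20.5% of its log2 change had passed by day 6, against 46.9% for NOP56 and 67.9% for NOP58. The NOP56 to FBL ratio of TPM was 0.590 on day 4 and 0.280 and 0.274 on the later days.

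The box H/ACA particles, which convert uridine to pseudouridine, gave unequal values for their core proteins. DKC1 (dyskerin), the pseudouridine synthase, was at 208.9, 85.0 and 26.6 CPM. GAR1 was at 45.3 CPM on day 4, 12.9 on day 6 and 11.2 on day 10, with a first step of 3.5-fold (2.92 to 4.22) and a second of 1.15-fold whose interval spans 1 (0.903 to 1.48). NHP2 was at 54.6, 34.8 and 21.3 CPM, the smallest whole-course fall of the snoRNP genes at 2.56-fold (2.2 to 3). DKC1 relative to NHP2, as a ratio of TPM, was 1.18, 0.759 and 0.394 on days 4, 6 and 10. NOLC1, a chaperone of both kinds of particle, was at 374.7, 139.8 and 50.8 CPM, which left 13.6% of day 4.

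Abundant and regulatory nucleolar proteins included the most abundant genes of the set. NPM1 (nucleophosmin), a histone and ribosome chaperone of the granular part of the nucleolus, was at 3918 CPM on day 4, 2537 on day 6 and 1917 on day 10, and it passed the 2-fold limit narrowly at 2.04-fold (2.01 to 2.08). In deposited TPM it was at 4400, 2228 and 1649, and its place among the measured genes went from 12 on day 4 to 162 on day 10. NCL (nucleolin), which binds precursor RNA, was at 2128, 1021 and 569.7 CPM and fell 3.74-fold (3.63 to 3.84), and its place by TPM went from 238 to 582. Since NPM1 kept more of its level than NCL, their ratio of TPM was 4.39, 5.88 and 8.07 on days 4, 6 and 10.

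MYBBP1A, a nucleolar protein that binds MYB and acts on polymerase I transcription, was at 781.4, 287.9 and 77.3 CPM. It fell 10.1-fold over the whole course (9.41 to 10.9), with a second step of 3.72-fold (3.45 to 4.02). The RNA helicase DDX21 was at 475.6, 160.1 and 78.3 CPM. GNL3 (nucleostemin), a GTPase known from proliferating and stem cells, was at 203.1, 114 and 61.6 CPM, and its steps of 1.78-fold and 1.85-fold were each below 2-fold although the whole course was 3.3-fold (3.02 to 3.6).

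The level of the set as a whole was dominated by NPM1 and NCL. Summed over the 48 genes the TPM was 9312 on day 4, 4004 on day 6 and 2504 on day 10, and NPM1 and NCL made up 58.0%, 65.1% and 74.0% of that sum. Without them the sums were 3909, 1397 and 650.3 TPM. All 48 genes together, NPM1 and NCL included, took 1.417%, 0.632% and 0.380% of the scaled counts in the same order.

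The small subunit processome cleaves the precursor around the RNA of the small subunit, and 13 of its 14 genes fell over the whole course, 10 of them in the first step and 5 in the second. RRP9, a protein of the snoRNP that guides the early cleavages, was at 97.3, 31.7 and 8.01 CPM. It fell 12.2-fold (9.74 to 15.3), with steps of 3.07-fold and 3.96-fold. RCL1 was at 61.4, 20.6 and 6.31 CPM, and its partner, the GTPase BMS1, at 168.8, 62.4 and 28.5 CPM. Both fell in each step.

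Among the proteins that bind the precursor first, HEATR1 had an early course. It was at 143.6 CPM on day 4, 33.5 on day 6 and 29.4 on day 10. Its first step was 4.29-fold (3.84 to 4.79), and its second was 1.14-fold with an interval that spans 1 (0.981 to 1.33), so that 91.8% of its log2 change had passed by day 6, the highest share among the genes that fell over the whole course. UTP20, a large scaffold protein, was alike at 135.5, 45.0 and 38.8 CPM, with a first step of 3.01-fold (2.72 to 3.33) and a second of 1.16-fold (1.02 to 1.32). Of the other first binders within the set, UTP15, WDR75 and WDR43 had a larger second step than HEATR1. UTP15 was at 51.5, 14.0 and 8.48 CPM, WDR75 at 123.9, 51.0 and 27.8 CPM, and WDR43 at 260.9, 108.9 and 54.2 CPM. WDR43 lay just outside the 2-fold limit for its second step, since its ratio of CPM was 2.01-fold but its difference in log2(CPM + 1) was -0.99.

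IMP3 and IMP4, which act in one complex of the processome, differed in timing. IMP3 was at 27.1, 23.5 and 12.1 CPM, and its first step of 1.15-fold (0.977 to 1.36) was the only one in the set whose interval spans 1. IMP4 was at 90.3, 46.8 and 17.1 CPM, a first step of 1.93-fold (1.74 to 2.15). The ratio of IMP3 to IMP4 in TPM was 0.548, 0.977 and 1.25 on days 4, 6 and 10. NAT10, which acetylates cytidines of ribosomal RNA, was at 202.4, 93.2 and 41.9 CPM, NOP14 at 105.4, 61.1 and 33.8 CPM and NOC4L at 36.0, 16.3 and 12.7 CPM.

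DDX10, an RNA helicase of the processome, did not pass the 2-fold limit in any comparison. Its CPM was 57.6, 35.2 and 34.9 in the order of days. The first step was 1.64-fold (1.45 to 1.86), and days 6 and 10 differed by 1.01-fold (0.873 to 1.16), within counting error. By TPM it was at 21.2, 10.1 and 10.2, which makes it the 1 gene of the 48 not lowest on day 10 on that scale. It kept 60.6% of its day 4 CPM, the most of any gene in the set.

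Late small subunit factors, which finish the particle on its way to the cytoplasm, fell over the whole course in 5 of 6 cases. RRP12, a repeat protein that takes part in subunit export, was at 303.3, 108.7 and 26.9 CPM, an 11.3-fold fall (9.98 to 12.8). Its second step of 4.04-fold (3.55 to 4.6) was the largest second step of the set. BYSL (bystin) was at 37.0, 8.71 and 3.20 CPM, with a first step of 4.25-fold (3.42 to 5.32) and a whole course of 11.6-fold (8.13 to 16.9). RIOK1, an atypical protein kinase, was at 61.1, 17.6 and 14.9 CPM and most of its change lay before day 6 (88.5% on the log2 scale), as with HEATR1, UTP20 and GAR1. TSR1 was at 239.2, 100.8 and 61.8 CPM, and NOB1, the endonuclease that makes the final cut of the small subunit RNA, at 51.9, 29.0 and 15.5 CPM. LTV1 was at 78.8 CPM on day 4, 51.3 on day 6 and 41.5 on day 10, a ratio of 1.9-fold (1.69 to 2.13) that did not pass the 2-fold limit.

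Large subunit assembly factors all fell over the whole course, 13 of 13, with 7 falls in the first step and 8 in the second. RRS1, which helps to place a small ribosomal RNA and its proteins in the large subunit, had the largest fall of the set. It was at 46.3 CPM on day 4, 9.70 on day 6 and 2.54 on day 10, from 505, 117 and 27 fragments. Its first step was 4.78-fold (3.9 to 5.89), its second 3.82-fold (2.49 to 6.03) and the whole course 18.2-fold (12.4 to 27.9). NIP7 was at 45.6, 15.7 and 5.09 CPM and kept 11.2% of day 4. NOP2, a methyltransferase of the large subunit RNA, was at 142.2, 45.0 and 19.4 CPM and kept 13.6%.

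Some large subunit genes had their larger change after day 6. NOC2L was at 156.8, 87.4 and 22.2 CPM, with a first step of 1.79-fold (1.66 to 1.94) and a second of 3.93-fold (3.41 to 4.55). Its partner NOC3L was at 79.4, 30.0 and 16.5 CPM, with the larger change before day 6. FTSJ3, a methyltransferase, was at 229.2, 121.1 and 43.0 CPM, and NOP16 at 130.6, 66.0 and 26.8 CPM. PES1 (pescadillo) was at 204.1, 134.4 and 62.0 CPM, with a first step of 1.52-fold (1.42 to 1.62) and a second of 2.17-fold (1.98 to 2.38).

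WDR12, which forms a complex with PES1 and BOP1, had the opposite order at 121.3, 56.6 and 43.4 CPM, so the ratio of PES1 to WDR12 in TPM was 1.22, 1.75 and 1.02. RRP1B was at 85.8, 38.7 and 17.3 CPM and the helicase DDX18 at 197, 76.8 and 55.4 CPM. EBNA1BP2 had the smallest whole-course change of the large subunit genes at 121, 65.4 and 49.4 CPM, a 2.45-fold fall (2.21 to 2.72). PPAN was the lowest of the set by CPM on days 4 and 6, at 8.35, 5.89 and 2.64 CPM in the order of days, from 91, 71 and 28 fragments. Its first step was 1.42-fold (1.03 to 1.96), and its second, 2.23-fold as a ratio of CPM (1.42 to 3.59), was -0.92 on the log2(CPM + 1) scale and so not counted as a fall.

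**Figure D2:**
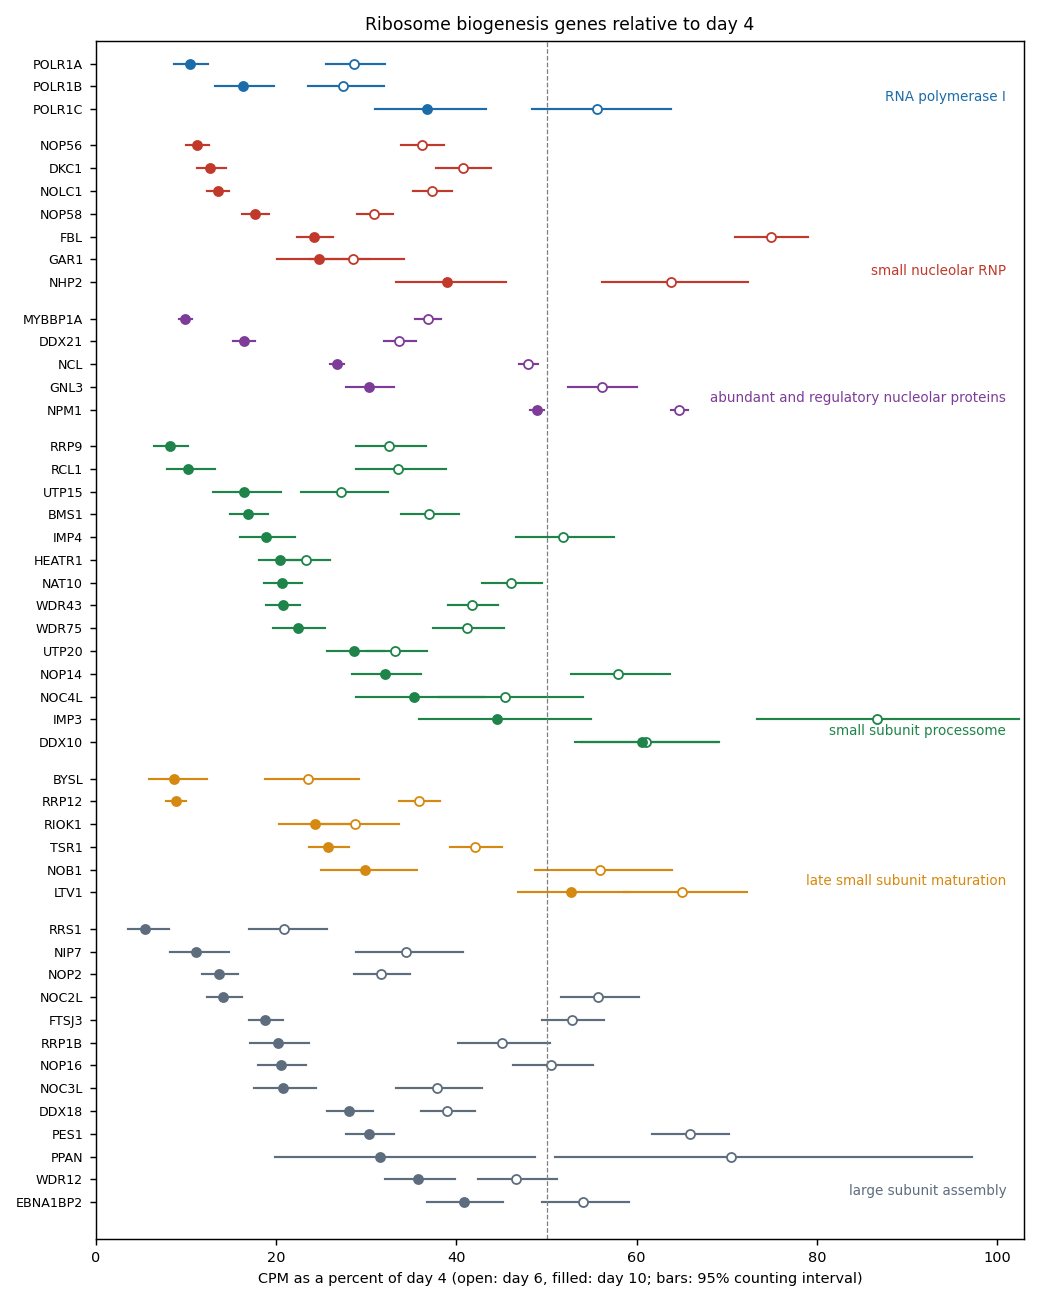
CPM of each gene as a percent of its day 4 CPM, open circles for day 6 and filled circles for day 10, with bars for the exact 95% counting interval and a dashed line at 50%. Filled circles reach from 5.49% for RRS1 to 60.6% for DDX10, and only those of DDX10 and LTV1 lie to the right of the line.

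Timing differed between genes of the same role. The first step was larger than the second in 28 of the 48 genes. By gene, 16 fell in both steps, 15 in the first only, 6 in the second only and 11 in neither step, 9 of which still passed 2-fold over the whole course. In the single steps 6.73% and 7.1% of all measured genes fell. Shares of all genes for the joint classes and for a larger first step are not given here, so these counts only describe the 48 genes. Among the 46 genes that fell over the whole course, the share of the log2 change that had passed by day 6 ran from 17.9% for IMP3 to 91.8% for HEATR1, with a median of 55.7%. By role the median percent of day 4 CPM left on day 10 was 16.3% for polymerase I, 17.7% for snoRNP proteins, 20.6% for large subunit factors, 20.7% for the processome, 25.1% for late small subunit factors and 26.8% for abundant and regulatory proteins. Within the processome alone the genes ran from 8.23% to 60.6%.

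**Figure D3:**
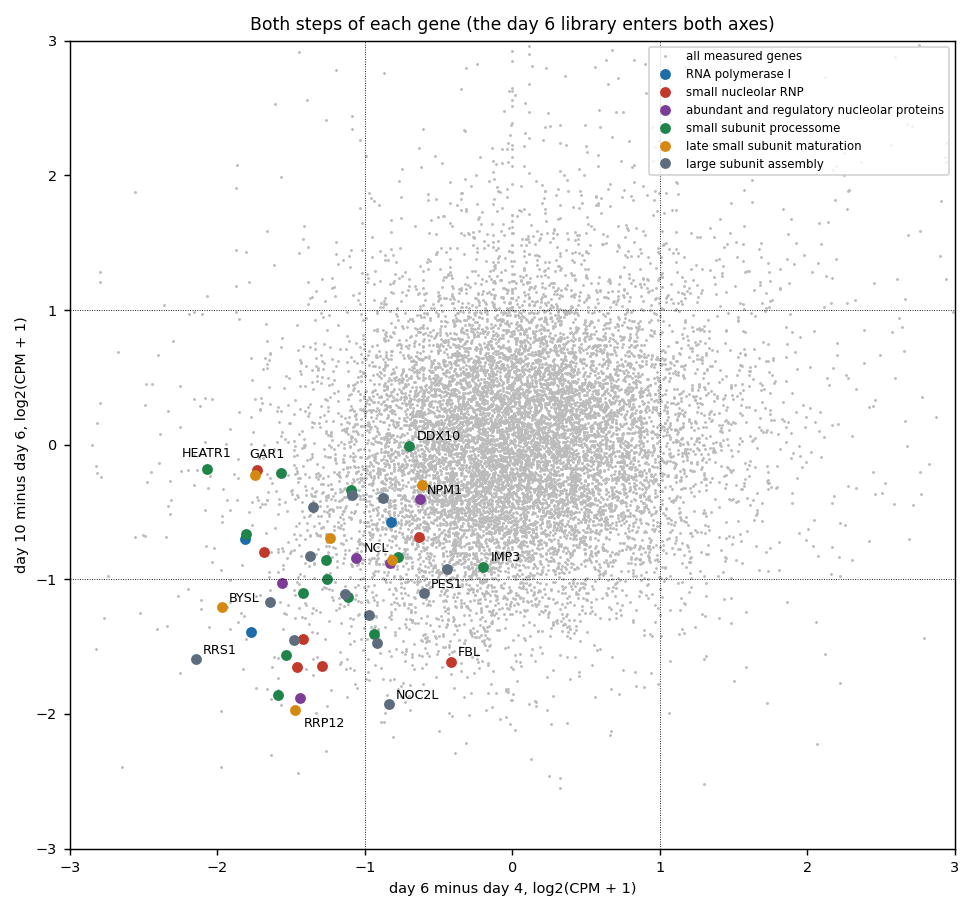
Difference in log2(CPM + 1) from day 4 to day 6 (horizontal) and from day 6 to day 10 (vertical) for the 48 genes, coloured by role, over the measured genes in grey. Dotted lines mark 2-fold, 125 of 12818 measured genes lie outside the plotted range, and all 48 coloured points lie below 0 on both axes, with RRS1 and HEATR1 at the far left, RRP12 and NOC2L at the bottom, and DDX10 within counting error of 0 on the vertical axis.

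Gene structure and length were examined beside these values. Of the 48 genes 10 were listed with 2 or more coding sequences. The coding sequences of 1 gene gave like courses, for example 7.51% to 7.60% of day 4 TPM left on day 10 over the 4 of MYBBP1A and 25.8% to 30.4% over the 2 of POLR1C. Spearman's rho between coding length and the difference across the 48 genes was -0.37 for the first step, -0.03 for the second and -0.31 for the whole course. Longer genes thus lay lower in the first step and over the whole course. Over 11012 measured genes the values were -0.16, 0.07 and -0.05. Genes in 1 library share its depth and are not independent replicates. NPM1 and ribosomal protein genes have near-identical copies elsewhere in mammalian genomes, so their shared reads may be split or misplaced, and reads from overlapping genes may mix because strand use in counting is not given in the sources used here.

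The rest of the pathway was described with 8 lists of 189 further genes, of which 178 were measured. Over the whole course 116 of the 178 fell and 0 rose, beside 15.8% and 17.1% of all measured genes, and their median was -1.38. The first and second steps gave 64 and 47 falls (medians -0.83 and -0.56), beside 6.73% and 7.1% of all genes. Falls over the whole course were counted for 42 of 55 other large subunit factors, 26 of 37 other processome genes, 8 of 13 other polymerase I subunits and initiation factors, 6 of 10 other snoRNP and snoRNP assembly genes, 8 of 13 export genes, 5 of 9 other late small subunit factors, 12 of 23 nuclease and exosome genes and 9 of 18 polymerase III genes. Of the 178 genes 29 lay at or below the median of the 48.

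Among the other large subunit factors URB2 fell most, from 62.6 CPM on day 4 to 19.1 on day 6 and 4.71 on day 10, which is 13.3-fold (9.97 to 18.1), followed by URB1 at 99.3, 25.6 and 10.8 CPM. POLR3G, a subunit of polymerase III known from undifferentiated cells, was at 34.3, 9.29 and 2.92 CPM, an 11.8-fold fall (8.14 to 17.6). POLR3K was at 32.6, 19.1 and 4.90 CPM. In the polymerase I list TCOF1 (treacle), which acts in transcription of the precursor, was at 98.7, 30.8 and 15.1 CPM, and the subunit CD3EAP at 44.0, 10.5 and 8.19 CPM. These falls lay within the range of the 48 genes.

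ZNHIT6, an assembly factor of box C/D particles, was at 37.9, 6.72 and 4.62 CPM, and RUVBL1, an ATPase of the same assembly path, at 234.4, 119.3 and 34.8 CPM. In the processome NOL10 was at 105.3, 24.2 and 13.9 CPM and PDCD11 at 128.6, 47.9 and 19.0 CPM. The late small subunit list was led by CINP at 58.6, 22.3 and 9.04 CPM and PDCD2L at 23.1, 13.6 and 4.80 CPM. RPP40 and POP1, proteins of the ribonuclease that cuts the spacer of the precursor, were at 43.0, 13.8 and 5.56 CPM and at 22.6, 5.47 and 3.86 CPM. NXT1 and RANBP1, which act in nuclear export, were at 18.0, 7.46 and 2.73 CPM and at 243.1, 136.9 and 56.2 CPM. Each of these genes fell over the whole course.

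Other genes of the pathway kept or exceeded their day 4 level. Of the 178 genes 13 had a higher CPM on day 10 than on day 4, and for 10 of them the counting interval lay above 1, where 37.9% of all measured genes had such an interval. None reached 2-fold. From day 6 to day 10 the interval lay above 1 for 21 of the 178 and 0 of the 48, beside 32.6% of all genes. The kinase RIOK3 was at 51.5, 56.5 and 90.3 CPM, 1.75-fold higher on day 10 than on day 4 (1.58 to 1.95). GLTSCR2 (NOP53), a large subunit factor, was at 31.8, 44.2 and 52.4 CPM, and TAF1D, a subunit of the polymerase I initiation factor, at 103.7, 104.4 and 158.4 CPM. These 3 were higher on day 10 with every scaling tried. The highest genes of the remaining lists depended on it. The export receptor XPO1 was at 223.5, 220.9 and 267.7 CPM, and its difference between day 10 and day 4 was 0.26 in log2(CPM + 1) but -0.10 with TPM. GTF3C3, ZNHIT3 and NOL7, the highest of the polymerase III, snoRNP and processome lists, likewise gave 0.32, 0.27 and 0.18 by CPM and -0.02, -0.11 and -0.21 by TPM. In the nuclease list SKIV2L2, a helicase of the exosome, was nearest to a rise at 185.1, 133.8 and 159.2 CPM.

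**Figure D4:**
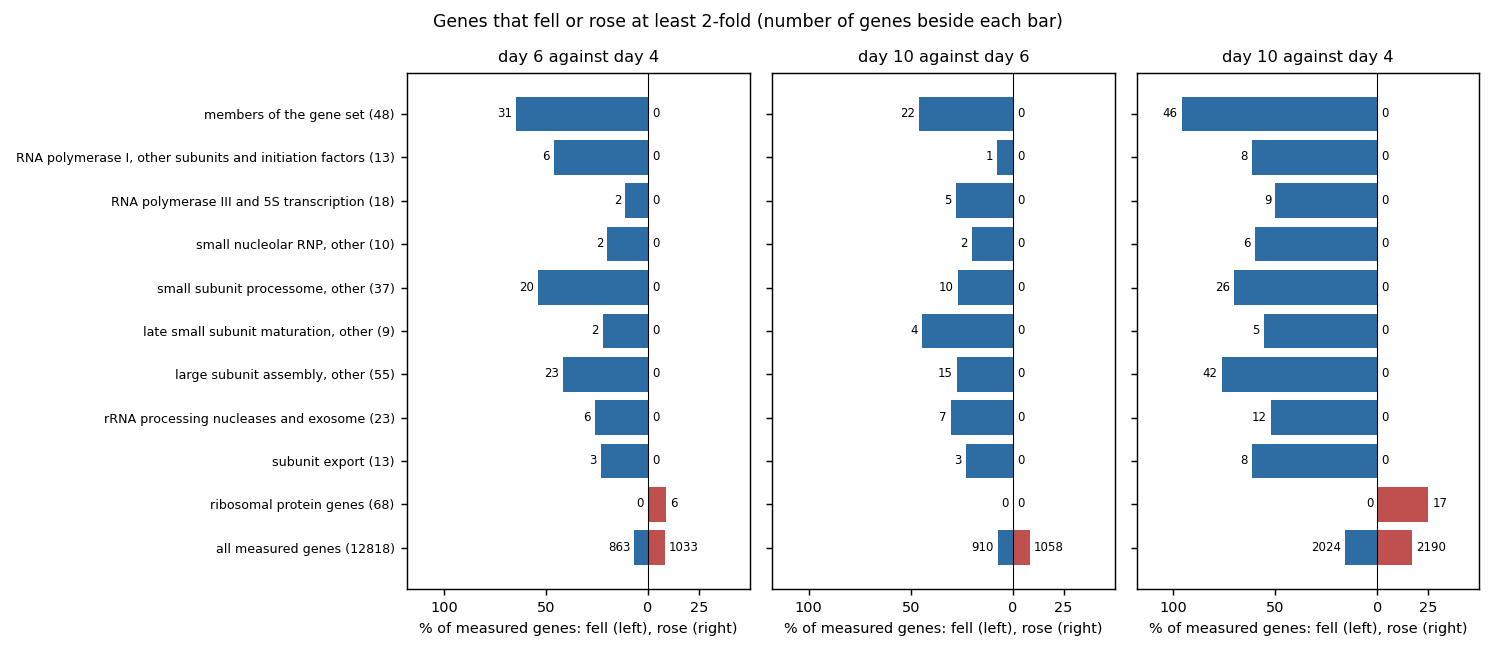
Percent of measured genes that fell (left, blue) or rose (right, red) at least 2-fold in log2(CPM + 1) in each comparison, for the 48 genes, the other pathway lists, ribosomal protein genes and all measured genes, with the number of measured genes in brackets and of counted genes beside each bar. The 48 genes have 46 falls from day 4 to day 10, the other pathway lists have falls and 0 rises, and ribosomal protein genes have 17 rises and 0 falls.

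Genes for cytoplasmic ribosomal proteins did not fall with the biogenesis genes. Of 79 listed 68 were measured, and over the whole course 17 rose and 0 fell, beside 17.1% and 15.8% of all measured genes. Their median was 0.85, where the 48 biogenesis genes had -2.24. With other scalings the count of rises was 17 with DESeq2 size factors, 8 without TMM factors and 1 with TPM, and the medians stayed above 0 at 0.84, 0.71 and 0.48. RPS21, a small subunit protein, had the largest rise at 313.4, 908.6 and 879.1 CPM, 2.81-fold over the whole course (2.7 to 2.92). RPL18 had the smallest difference at 502.5, 608.5 and 522.7 CPM. Summed TPM of ribosomal protein genes was 14.6 times that of the 48 biogenesis genes on day 4, 44.5 times on day 6 and 75.8 times on day 10.

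**Figure D5:**
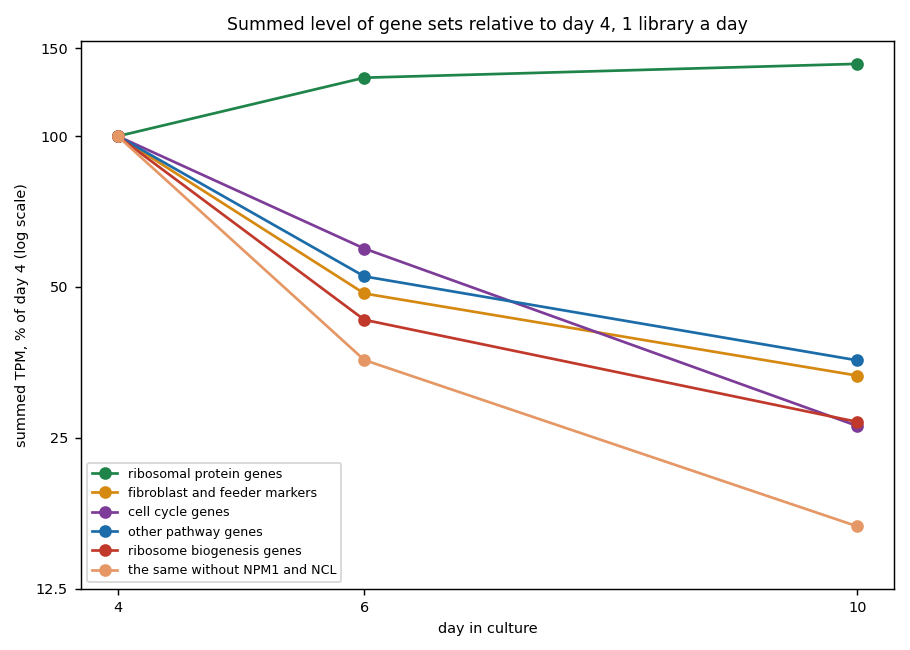
Summed deposited TPM of gene sets as a percent of day 4, on a log scale against day in culture, 1 library a day and no error bars. The 48 ribosome biogenesis genes went from 9312 to 2504 TPM and without NPM1 and NCL from 3909 to 650.3, cell cycle genes from 1889 to 498.5 and fibroblast and feeder markers from 3604 to 1199, while ribosomal protein genes went from 136100 to 189800.

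Most cell cycle genes fell after day 6. Of 15 such genes 1 fell in the first step (median -0.37) and 12 in the second (median -1.29), with 0 rises, beside falls in 6.73% and 7.1% of all measured genes. By comparison 31 of the 48 biogenesis genes fell in the first step and 22 in the second. The difference in timing was not tested. MKI67, a marker of cycling cells, was at 341.6, 304 and 147.3 CPM, and the replication clamp PCNA at 381.4, 317.1 and 122.8 CPM. CDC6, which loads the replicative helicase, had the largest fall at 34.2, 12.4 and 3.20 CPM and was the 1 gene of the list that fell in the first step. TOP2A had the smallest difference at 342, 247.4 and 204.1 CPM.

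MYC was at 90.2 CPM on day 4, 47.3 on day 6 and 26.4 on day 10, 3.42-fold over the whole course (2.99 to 3.92). Its first step was -0.92 and its second -0.82 in log2(CPM + 1), neither of them 2-fold. Of 16 measured genes listed as regulators of ribosome biogenesis 2 fell and 3 rose over the whole course, shares near those of all measured genes (15.8% and 17.1%). MXD1, a factor that competes with MYC for their shared partner, had the largest difference at 4.04, 6.14 and 32.2 CPM, a 7.98-fold rise (5.82 to 11.2). EIF4EBP1, an inhibitor of translation initiation, was at 59.7, 68.7 and 22.9 CPM and fell after day 6. RRAGD, a nutrient-sensing GTPase, was at 0.73, 0.66 and 1.51 CPM, too few fragments for a difference (2.05-fold, 0.829 to 5.54). DEPTOR, an inhibitor of the kinase MTOR, had the smallest difference between days 4 and 10 at 7.43, 19.8 and 7.63 CPM.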

How the data were processed

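Total RNA of 3 RCE1(5T5) cultures, 1 library for each stage, was sequenced from Illumina TruSeq RNA libraries, per the labels' protocols. The submitters' processing notes name the genome build OryCun2.0. Aligner, counter and strand use were not given in the sources used here. The deposited tables list 38696 coding sequences a library with values made by the authors. Per the file headers, fragment and read columns are raw counts, but the deposited values are estimated counts, many of them fractional. Per the file headers, the authors also gave a raw transcript count, which is a coverage signal equal to reads times an implied length of 75 over coding length. The deposited FPKM and RPKM columns, scaled by the authors for depth and length, were not used in results. The deposited TPM columns sum to between 999978.8 and 999985.6 a library.

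Fragments were summed per gene name and rounded to whole numbers, since the plan had assumed whole counts, then scaled to CPM with TMM factors (1.071, 0.958 and 0.974 on days 4, 6 and 10) from edgeR 4.0.16 in R 4.3.3. Differences are of log2(CPM + 1) over the 12818 genes with at least 1 CPM in a library. Folds are ratios of CPM with exact 95% Clopper-Pearson intervals from scipy 1.17.1. PCR copies are not independent molecules, so intervals cover counting error only. Levels between genes were compared by TPM. A RefSeq gene table of assembly mOryCun1.1, used for names only, held symbols for 718 of 5185 LOC names, and 671 took theirs. The scaling and counting steps were tested on simulated data.

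The members and gene lists were chosen with earlier results of these data known, so their direction is no independent evidence. Every member could be named. Full values went to the 3 most abundant members, the 4 largest and 4 smallest falls of each comparison and the largest and smallest whole-course fall of each role. Each pathway list gave up to 2 genes with the largest fall and the highest gene where none rose, and the regulators and cell cycle lists gave key genes and the largest and smallest difference. Alternatives were DESeq2 1.42.0 size factors, no TMM factors, TPM, read counts, the highest coding sequence, other pseudocounts, minima and fold limits.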

Additional observations from a re-analysis of the deposited data

How the results depend on the processing

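With 1 library a stage no replicate could be left out, and culture-to-culture variation is not known. No paired analysis was possible because each stage has 1 library. Of 93 values recomputed over 11 alternatives for the counts and medians of the 48 genes, 85 stayed within 1.5 times (counts) or the median counting half-width (medians). These values include the counts of rises, which were 0 under every alternative and so all stayed. Counts have no direction, and 0 of the medians changed sign. The median from day 4 to day 6 (-1.26) was -1.42 without TMM factors and -1.58 with TPM. The median from day 4 to day 10 (-2.24) was -2.05 with a pseudocount of 5 and -2.46 with TPM. For falls, a 4-fold limit left 2 in the first step, 0 in the second and 28 over the whole course, beside 0.671%, 0.2496% and 3.09% of all measured genes. A 1.5-fold limit gave 36 in the second, beside 19.2%. The count of 0 comes from a fold limit and no test. The cause of the other shifts was not tested. At 2-fold the falls ran from 30 to 42 in the first step, from 18 to 24 in the second and from 44 to 47 over the whole course, with 0 rises under every alternative. The share of all measured genes that fell moved under the same alternatives. It ran from 3.52% to 13.2% in the first step, from 3.53% to 10.2% in the second and from 10.3% to 23.9% over the whole course.

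The scaling also moved all genes. The median of all measured genes from day 4 to day 6 was 0.00 with TMM factors, -0.14 without and -0.30 with TPM, and from day 4 to day 10 it was 0.01, -0.11 and -0.31. Relative to that shift the median of the 48 genes was -1.26, -1.28 and -1.28 for the first step and -2.25, -2.26 and -2.15 for the whole course. Rises made up 54.5% of all changed genes from day 4 to day 6 with TMM factors, 39.3% without and 25.5% with TPM, and 52.0%, 44.1% and 31.9% from day 4 to day 10. Of 432 single-gene values a comparison, 4 took the other sign from day 6 to day 10, those of DDX10 without TMM factors (0.01), with DESeq2 size factors (0.00), with TPM (0.01) and with read counts (0.02), and 0 in the other comparisons. The fewest fragments of a member in any library were 27, those of RRS1 on day 10, which limits the precision of its differences.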

Other observations

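Genes of the MXD family, which bind MAX in place of MYC, were chosen for this paragraph after their values were seen. MXD1 was at 4.04, 6.14 and 32.2 CPM on days 4, 6 and 10, MXD3 at 1.93, 13.2 and 10.45 CPM and MXD4 at 18.1, 49.7 and 50.2 CPM. These were the 3 of 16 listed regulators that rose over the whole course, a share near the 17.1% of all measured genes that rose, by 7.98-fold (95% counting interval 5.82 to 11.2), 5.42-fold (3.38 to 9.11) and 2.78-fold (2.35 to 3.29). MXD3 and MXD4 passed 2-fold by day 6, and MXD1 after it. Their partner MAX was at 43.5, 37.1 and 31.8 CPM and the related MNT at 8.81, 8.38 and 7.35 CPM. With TPM the whole-course differences in log2 were 2.42 for MXD1, 1.76 for MXD3 and 1.08 for MXD4.

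Factors of polymerase I initiation, a step before the processing handled by most of the 48 genes, gave unlike values. RRN3, which recruits the polymerase, was at 72.0, 25.7 and 21.5 CPM, with the larger change before day 6. UBTF, which binds the ribosomal DNA, was at 124.2, 102.2 and 37.9 CPM, with the larger change after day 6. POLR1D, shared with polymerase III as POLR1C is, was at 74.1, 77.5 and 89.6 CPM, where POLR1C was at 50.6, 28.1 and 18.6 CPM. The direction for POLR1D depended on the scaling, since by TPM it was at 190.4, 152.6 and 174.1. POLR1C was at 50.9, 21.5 and 14.2 TPM.

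In the large subunit path SBDS, which acts in the last cytoplasmic step, was at 113.8, 115.4 and 142.5 CPM, and EIF6, the factor released in that step, at 337, 335 and 157 CPM. RSL24D1 was at 82.9, 51.8 and 77.3 CPM and so higher on day 10 than on day 6. SBDS, EIF6 and RSL24D1 were named outside the rule given for pathway lists. They come from the 55 other large subunit factors, of which 42 fell over the whole course. Their values under other scalings are not given here. From day 4 to day 10 the median of all measured genes was 0.01 with TMM factors and -0.31 with TPM.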
